A study of Vulpes vulpes with 48 samples.

Results

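Prefrontal cortex of tame silver foxes (Vulpes vulpes) was compared with that of aggressive foxes, using part of the tame libraries. These were chosen by a measured value, the share of a library's counts held by its 100 highest genes. Of 12 tame cortex libraries, 7 had a share under 17% and were kept (ID181, ID183, ID184, ID185, ID188, ID189 and ID192), and 5 were left out (ID182, ID186, ID187, ID190 and ID191). All 12 aggressive cortex libraries (ID229 to ID240) entered the comparison, so 19 of the 48 labelled samples of the series were compared.

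Both groups were male foxes aged 1.5 years, and both gave right prefrontal cortex. They differ by line: one was bred for tameness and the other for aggression. Poly(A) RNA was sequenced and counted against dog genes. Basal forebrain libraries of the same lines (10 tame and 12 aggressive) were used as further measurements. The labels give no treatment, kinship, litter or batch, and they do not say which cortex and forebrain libraries come from 1 fox. Each library is taken as a separate fox. Most forebrain identifiers end in the same digits as a cortex identifier of the same line, as in ID183 and ID483 or ID229 and ID529. The same foxes may therefore have given both tissues, which the labels do not state. If any libraries within a region were repeats of 1 animal, the p-values would measure technical spread.

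The silver fox lines are a long-running model of domestication, in which animals are bred for how they respond to people. The prefrontal cortex takes part in the control of emotional and social responses, and basal forebrain nuclei send cholinergic and other projections to the cortex. Bulk RNA from such tissue mixes neurons, glia and vessel cells, so fewer cells of a type and less RNA per cell cannot be told apart.

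The genes carry dog Ensembl identifiers, which the files do not pair with names, and 0 of the 13202 identifiers matched the fox RefSeq table. Genes are therefore described by identifier, level and behaviour across libraries, and at most 2 higher and 2 lower genes are identified. For the same reason the tissue labels could not be checked against marker genes, and markers of neurons, glia or blood were not measured as such.

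The share that chose the libraries ran from 14.98% (ID185) to 15.4% (ID184) in the 7 kept tame libraries, with a mean of 15.2% ± 0.183 (SD, n = 7). In aggressive libraries it ran from 14.6% to 15.5%, with a mean of 15.2% ± 0.291 (SD, n = 12). Just outside the cutoff lay tame library ID190 at 17.4%, and the left-out libraries reached 21.4% (ID187). No library fell between 15.5% and 17.4%, and all aggressive libraries lay under 17%, so the same cutoff in both lines keeps the same 19 libraries. These shares are a description and were not tested. Only the tame line lost libraries, and the p-values below take that choice as given.

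**Figure D1:**
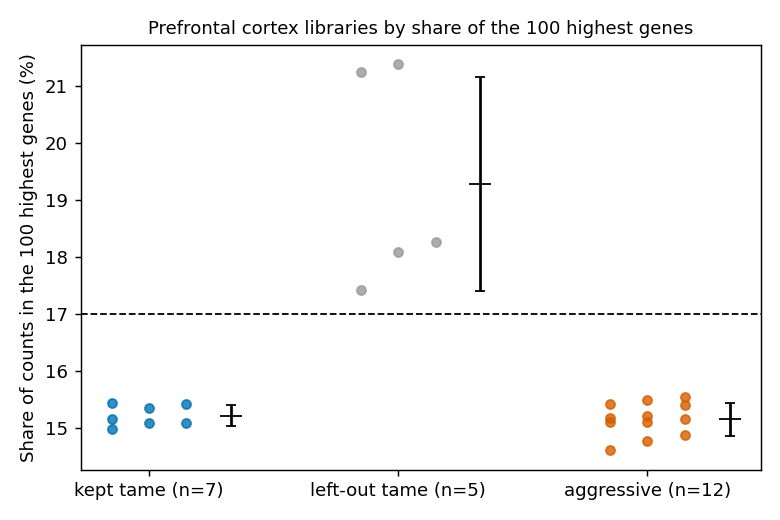
Share of counts held by the 100 highest genes (%, vertical axis) in each prefrontal cortex library, by group. Points are libraries, the bar beside each group is the mean ± SD, and the dashed line is the 17% cutoff. The 7 kept tame and the 12 aggressive libraries lie between 14.6% and 15.5%, and the 5 left-out tame libraries between 17.4% and 21.4%.

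Kept tame libraries held 11.7 ± 3.61 M counts (M, units of 1000000; SD, n = 7; lowest 7.09 M in ID184, highest 17.2 M in ID188). Aggressive libraries held 12.1 ± 3.21 M (SD, n = 12; 6.23 to 16.1 M). The difference of -0.381 M, tame minus aggressive, was within the spread between libraries (two-sided exact permutation test, p = 0.811). Between 0 and 10 genes of the 12808 in the table had a count of 0 in a kept tame library, and the same range held in aggressive libraries.

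Distances between libraries over all genes were similar within and between the lines on average. The root mean square distance over genes, in log2 counts per 1000000 counts of the library (CPM), averaged 0.281 between kept tame libraries (21 pairs) and 0.273 between aggressive libraries (66 pairs). Between a kept tame and an aggressive library it averaged 0.282 (84 pairs). By single library the lines were less mixed: all 12 aggressive libraries and 5 of the 7 kept tame libraries had their nearest library in their own line. All 12 aggressive libraries and 4 of the 7 kept tame libraries were on average closer to their own line than to the other. The fitted coefficient of variation between libraries, beyond counting error, was 0.139 in kept tame and 0.130 in aggressive foxes, each fitted alone, against 0.439 for all 12 tame libraries. Since a measured value decided which tame libraries entered, these distances and spreads were not tested.

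Among the kept tame libraries, ID185 stood apart. It scored 33.2 on the first principal component of the 19 libraries, which held 20.9% of the variance, while the other 6 tame libraries scored between -9.98 and -2.39. Aggressive library ID238 scored 22.0 on the same axis and the other 11 aggressive libraries between -7.67 and 5.16. The axis that sets ID185 apart thus also held an aggressive library. Without both libraries, 25 genes passed the threshold used below, against 30 with them, and 15 of the 25 were among the 30.

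**Figure D2:**
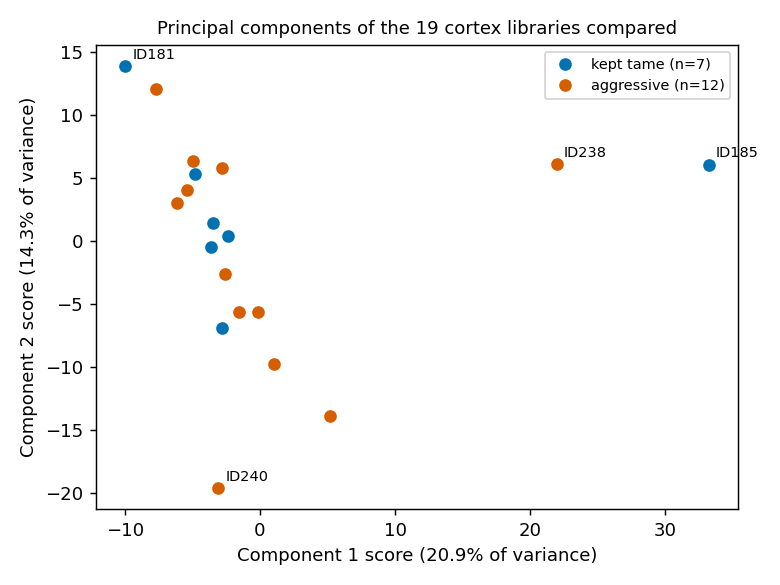
Scores of the 19 cortex libraries on the first and second principal components of log2 CPM (horizontal and vertical axes, percent of variance in the labels). Points are libraries coloured by line, with 4 of the outermost labelled. Tame ID185 (33.2) and aggressive ID238 (22.0) lie apart on component 1, and the lines overlap on both axes.

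The line difference per gene was then tested. At an adjusted p under 0.05, 30 of 12782 genes differed between the 7 kept tame and the 12 aggressive libraries (0.235% of genes tested; edgeR quasi-likelihood test with Benjamini-Hochberg adjustment over all genes). Of these, 14 were higher in tame foxes (0.11%) and 16 were lower (0.125%), and they are termed called genes here. In the same fit 906 genes had an unadjusted p under 0.05. The median log2 fold change over all genes was 0.002 and the median absolute change 0.06; the scaling places the first of these near 0.

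The called changes were mostly modest. Absolute log2 fold changes ran from 0.36 to 1.58 in the 14 higher genes (median 0.52) and from 0.29 to 2.51 in the 16 lower genes (median 0.55). Of the 30 genes, 17 differed by more than 0.5 on the log2 scale and 3 by more than 1, 1 of them higher and 2 lower in tame. Size alone did not make a call: 28 of all tested genes had an absolute log2 fold change over 1, and 25 of these did not pass. The 2 largest called decreases were in sparsely expressed genes, at 1.51 ± 0.499 against 8.54 ± 5.13 CPM and at 1.08 ± 0.840 against 3.20 ± 1.01 CPM (tame against aggressive; SD, n = 7 and n = 12). The largest called increase was sparser still, at 2.04 ± 1.14 against 0.669 ± 0.285 CPM (SD, n = 7 and n = 12).

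The called genes were spread over levels. By quartile of mean abundance, from lowest to highest, 12, 5, 11 and 2 genes were called, or 0.375%, 0.156%, 0.344% and 0.0626% of each quartile. In the lowest quartile, where the median gene stood at 4.26 CPM, the 6 higher and 6 lower called genes had a median absolute log2 fold change of 0.85. In the highest quartile, with a median of 150 CPM, 1 gene was higher and 1 lower. The 165 genes that were among the 100 highest of any cortex library had entered the share that chose the libraries, and 0 of them were called. At the 0.235% called over all genes, 0.387 of 165 would be, so that count shows nothing particular to them. Their log2 fold changes ran from -0.21 to 0.38 with a median of -0.01.

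**Figure D3:**
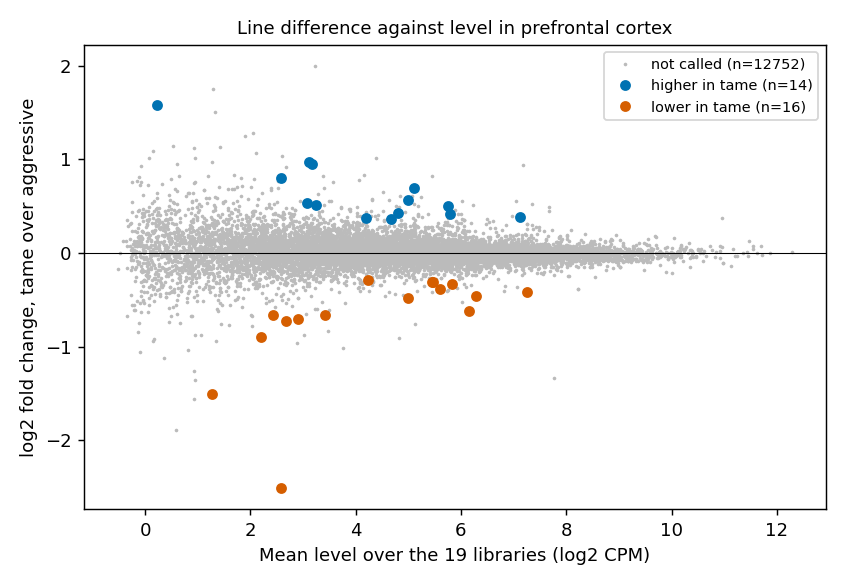
Log2 fold change of tame over aggressive cortex (vertical axis) against the mean level over the 19 libraries (log2 CPM, horizontal axis), 1 point per gene tested. The 14 genes called higher and the 16 called lower in tame are coloured, and uncalled genes are grey. Called genes lie on both sides of 0 at most levels, and the largest decrease is 2.51 on the log2 scale.

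Called genes rarely separated the lines completely. For 2 genes every kept tame library lay above every aggressive library, and for another 2 every tame library lay below; each is 0.0156% of the genes tested, and all 4 were called. Of the remaining 26 called genes, 11 had 6 tame libraries outside the aggressive range, 11 had 5, 3 had 4 and 1 had 3. Taken library by library, ID183 lay outside the aggressive range in 26 of the 30 genes and ID184 in 20, with the other 5 tame libraries between 22 and 25. ID185, the library apart on the first component, did so in 25. These counts come from the libraries that made the calls and describe how evenly the tame foxes contributed.

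A less circular description came from leaving out each library in turn and taking the genes called without it. Each withheld library was placed on the tame or the aggressive side of the midpoint between the line means of the others. Kept tame libraries fell on the tame side in 54.2% (ID185, 13 of 24 genes) to 81.3% (ID183, 13 of 16 genes) of those genes. Over all genes the same libraries fell on that side in 42.0% to 52.5%. Aggressive libraries fell on their own side in 62.5% (ID240) to 100% (ID236) of the called genes and in 46.3% to 58.8% of all genes. ID189, with 9 of 16 genes, was nearly as evenly placed as ID185.

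The number of called genes depended on single foxes. It ran from 15 to 33 over the 19 fits that each left out 1 library. It was 16 without tame ID183, 19 without ID188, 16 without ID189 and 15 without ID192, and 17 and 16 without aggressive ID231 and ID232. Of the 30 genes, 10 were called in all 19 of these fits, 4 higher and 6 lower in tame. Under the Wilcoxon rank-sum test 0 genes were called and 876 had an unadjusted p under 0.05. With 7 and 12 libraries that test can give no p below 3.97e-05, which limits what it can call after adjustment over 12782 genes. Its 0 therefore does not show that the calls are unstable. Other methods called more genes: 67 with DESeq2, 115 with limma-voom and sample quality weights, and 97 with surrogate variables.

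ENSCAFG00000008344 had the smallest p-value of all genes and was higher in tame cortex. The kept tame libraries stood at 56.3 (ID185), 60.8 (ID192), 65.2 (ID188), 65.4 (ID184), 67.1 (ID181), 68.9 (ID189) and 77.3 CPM (ID183). Aggressive libraries ran from 44.4 (ID238) through a median of 49.8 to 54.9 CPM (ID229). The lines did not overlap, and the lowest tame value belonged to the library that stood apart. The means were 65.9 ± 6.60 (SD, n = 7) and 49.5 ± 2.90 CPM (SD, n = 12), a 1.33-fold higher level in tame foxes (log2 fold change 0.41, SE 0.055, edgeR adjusted p = 0.00162).

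The call of ENSCAFG00000008344 rests on which tame libraries are compared. Scaled together with all 24 cortex libraries, the 5 left-out tame libraries ran from 11.1 (ID187) through a median of 22.4 to 54.1 CPM (ID190), so 4 of them lay below the lowest aggressive library at 42.8 CPM. With all 12 tame libraries the fit gave 0.04 on the log2 scale (SE 0.22, adjusted p = 0.889 by edgeR), and with tame libraries under a 20% share it gave 0.21 (adjusted p = 0.402 by edgeR). Those fits use the same aggressive libraries. In the forebrain the gene stood at 70.9 ± 9.60 (SD, n = 10 tame) and 64.4 ± 8.72 CPM (SD, n = 12 aggressive) and did not pass the test (0.14 on the log2 scale, SE 0.083, edgeR adjusted p = 0.497). The difference between the regions did not pass either (interaction, cortex minus forebrain log2 fold change, 0.27, SE 0.10, edgeR adjusted p = 0.791).

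ENSCAFG00000009326 was also higher in every kept tame library than in every aggressive one. Tame values were 54.96 (ID188), 56.6 (ID184), 61.9 (ID185), 68.1 (ID189), 68.5 (ID181), 73.9 (ID183) and 78.2 CPM (ID192). Aggressive values ran from 38.0 (ID238) through a median of 47.1 to 52.7 CPM (ID231). The tame foxes spread over a wider range than the aggressive ones, with no value in common. The means were 66.0 ± 8.64 (SD, n = 7) and 46.5 ± 4.65 CPM (SD, n = 12), a 1.42-fold difference (log2 fold change 0.51, SE 0.074, edgeR adjusted p = 0.00348).

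ENSCAFG00000009326 was also called in the forebrain. The left-out tame libraries ran from 38.2 to 64.3 CPM with a median of 53.9, on both sides of the highest aggressive value of 51.2 CPM on that scale. The fit of all 12 tame libraries gave 0.40 on the log2 scale (SE 0.093, adjusted p = 0.0464 by edgeR). In the forebrain it stood at 95.1 ± 14.7 (SD, n = 10) against 68.5 ± 9.71 CPM (SD, n = 12), or 0.47 on the log2 scale (SE 0.090, adjusted p = 0.0293 by edgeR). Without tame forebrain library ID483 that adjusted p was 0.0518.

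ENSCAFG00000007746 was the lower gene with the smallest p-value. Tame values were 3.58 (ID192), 4.05 (ID188), 4.24 (ID189), 4.41 (ID184), 4.57 (ID183), 4.86 (ID181) and 5.99 CPM (ID185). Aggressive libraries ran from 5.64 (ID237) through a median of 7.73 to 9.12 CPM (ID235). Only ID185 reached into the aggressive range, and none of the 7 tame values exceeded the median of the aggressive foxes. The means were 4.53 ± 0.761 (SD, n = 7) and 7.49 ± 1.05 CPM (SD, n = 12), a 1.65-fold lower level in tame (log2 fold change -0.72, SE 0.11, edgeR adjusted p = 0.00694). Among the 19 cortex libraries compared, the lowest held 31 counts of this gene, the thinnest depth of the 4 identified genes in those libraries.

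For ENSCAFG00000007746 the left-out tame libraries ran from 1.50 to 4.53 CPM with a median of 4.05, under the lowest aggressive value of 5.46 CPM on that scale. The fit of all 12 tame libraries gave -0.87 on the log2 scale (SE 0.15, adjusted p = 0.00793 by edgeR). Forebrain levels were 8.72 ± 1.78 CPM in the tame line (SD, n = 10) against 13.3 ± 1.76 CPM (SD, n = 12), or -0.61 on the log2 scale (SE 0.11, adjusted p = 0.0143 by edgeR). The gene was thus lower in tame foxes in both regions. The interaction was -0.12 (SE 0.15, edgeR adjusted p = 0.861).

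ENSCAFG00000006655 was lower in tame cortex, at 20.6 (ID184), 22.2 (ID185), 24.1 (ID183), 25.4 (ID188), 26.5 (ID192), 27.6 (ID181) and 30.7 CPM (ID189). Aggressive libraries ran from 29.7 (ID238) through a median of 34.8 to 41.8 CPM (ID237). Tame ID189 alone lay within the aggressive range. The means were 25.3 ± 3.39 (SD, n = 7) and 35.4 ± 3.73 CPM (SD, n = 12), a 1.40-fold lower level in tame (log2 fold change -0.48, SE 0.079, edgeR adjusted p = 0.00937). The fit of all 12 tame libraries gave -0.37 on the log2 scale (SE 0.088, adjusted p = 0.0519 by edgeR).

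In the forebrain ENSCAFG00000006655 was sparse and uneven. Tame libraries ran from 2.35 through a median of 2.82 to 17.8 CPM (ID483), and aggressive libraries from 1.27 through 2.67 to 10.8 CPM (ID530). The lines overlapped there, and the log2 fold change of 0.61 (SE 0.42) did not pass the test (edgeR adjusted p = 0.549). Without ID483 it was 0.23 (edgeR adjusted p = 0.899). The interaction of -1.08 (SE 0.44) did not pass (edgeR adjusted p = 0.791).

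**Figure D4:**
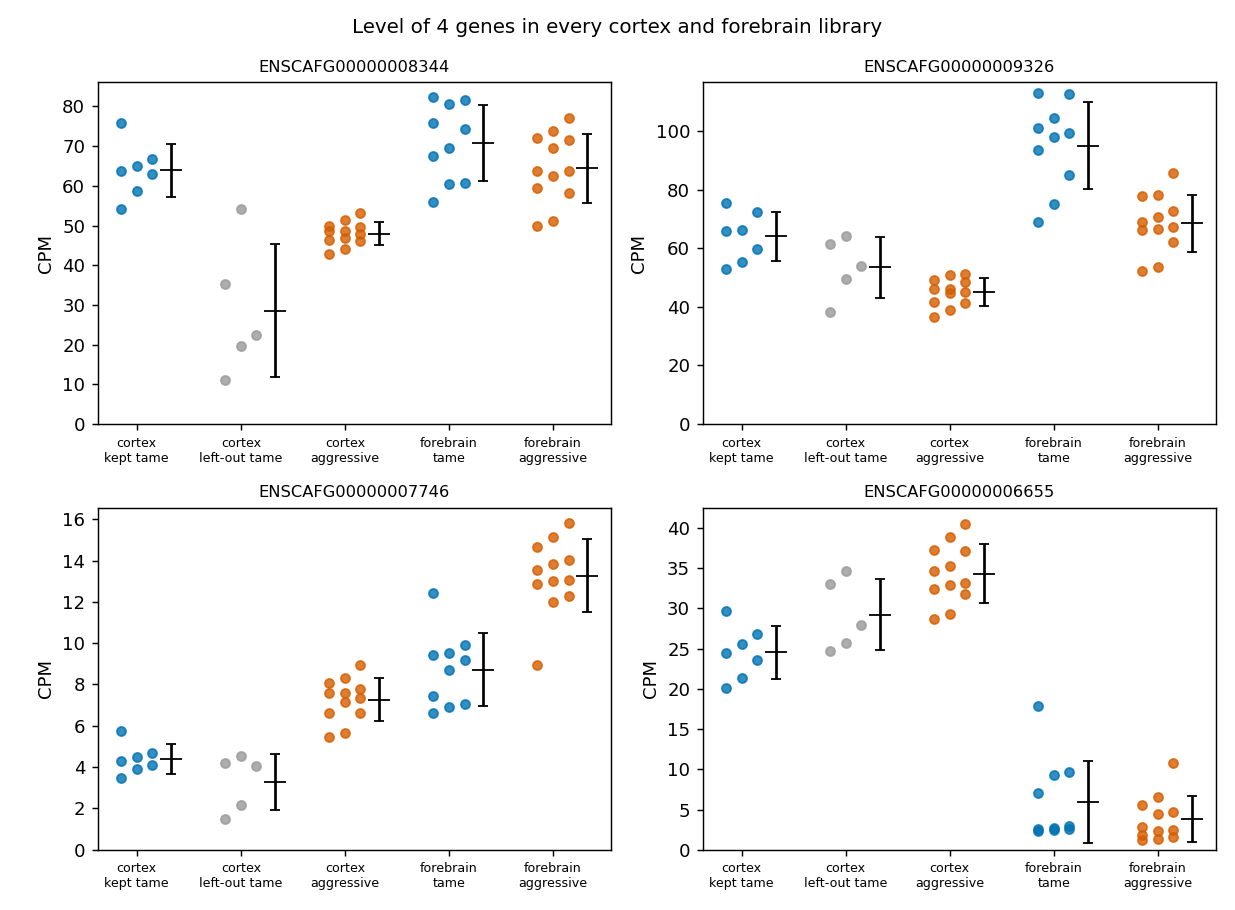
Level (CPM, vertical axes from 0) of ENSCAFG00000008344, ENSCAFG00000009326, ENSCAFG00000007746 and ENSCAFG00000006655 in kept tame, left-out tame and aggressive cortex libraries and in tame and aggressive forebrain libraries. Points are libraries and bars are mean ± SD; cortex is scaled over 24 libraries and forebrain separately, so levels across the regions are not on 1 scale. In the first panel the left-out tame libraries (11.1 to 54.1 CPM) lie mostly below the aggressive libraries, while the kept tame libraries lie above them.

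The forebrain libraries were not used to choose the cortex libraries, so they give each called gene a further measurement. Of the 14 genes higher in kept tame cortex, 14 had a log2 fold change above 0 in forebrain tissue, and for 11 the unadjusted p there was under 0.05. Of the 16 lower genes, 15 were tested in the forebrain, 12 had a log2 fold change below 0 and 11 of these an unadjusted p under 0.05. Among all 12608 genes tested in both regions, 53.5% had the same sign and 7.48% had the same sign with an unadjusted p under 0.05. The median forebrain log2 fold change was 0.40 for the higher genes and -0.30 for the lower genes, against cortex medians of 0.52 and -0.48 for the same genes.

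At the adjusted threshold the forebrain fit called 12 of 12915 genes (0.0929%), and 7 of the 30 cortex genes were among them, all with the sign they had in the cortex. Without forebrain library ID483, 14 of 14 higher and 14 of 16 lower genes had the same sign, and 7 were called, 6 of them shared with the 7 above. Some foxes may have given both tissues, which the labels do not state, and a forebrain count from the fit of all tame cortex libraries was known when this one was made. The same-sign counts are therefore a description with no test.

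The difference of the line effect between cortex and forebrain was tested in a joint fit that takes every library as a separate fox. Its standard errors and calls do not allow for foxes that may have given both tissues. Of 12695 genes, 0 passed an adjusted p of 0.05 (0%; edgeR, smallest adjusted p = 0.791), and 775 had an unadjusted p under 0.05. DESeq2 called 0 as well, with 806 under an unadjusted 0.05. Of the 30 called cortex genes, 5 had an unadjusted interaction p under 0.05, 2 higher and 3 lower in tame, where 6.10% of all genes did. The cortex libraries that made the calls also enter this fit, so the 2 figures cannot be compared as a test. A gene called in the cortex and not in the forebrain was thus not shown to differ between them.

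**Figure D5:**
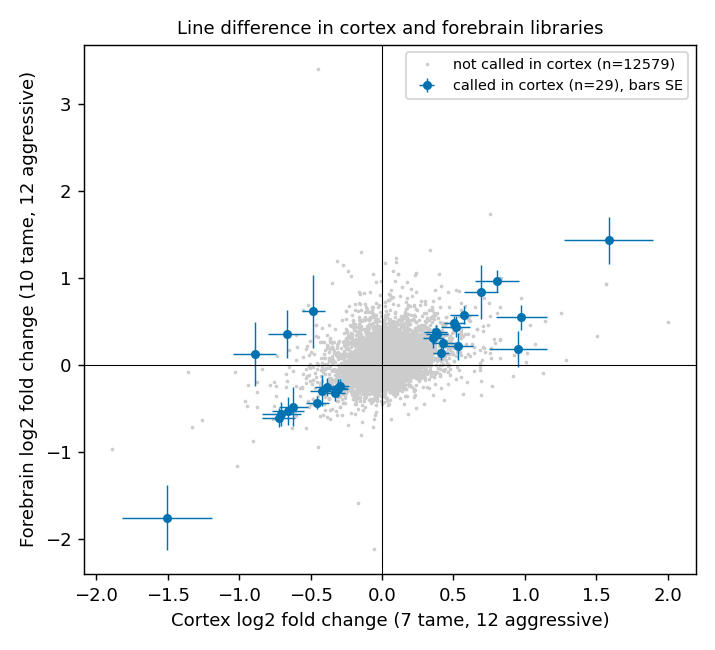
Log2 fold change of tame over aggressive foxes in the forebrain (10 tame and 12 aggressive libraries, vertical axis) against that in the cortex (7 and 12 libraries, horizontal axis), 1 point per gene tested in both. The 29 genes called in the cortex are coloured with SE bars and the others are grey. All 14 genes higher in tame cortex lie above 0 in the forebrain, and 12 of the 15 lower genes lie below 0.

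Leaving out 5 tame libraries changed the precision and the balance of the comparison. The median standard error of a log2 fold change was 0.0837 with the 7 kept tame libraries and 0.161 with all 12, and the fitted coefficient of variation was 0.133 and 0.322. Both fits use the same aggressive libraries and the 7 kept tame libraries. The fit of all 12 called 55 of 12705 genes (0.433%), 43 higher and 12 lower, against 14 higher and 16 lower here. For the 13 higher genes tested in both fits the median log2 fold change was 0.52 here and 0.63 with all 12. For the 16 lower genes it was -0.55 and -0.55. These medians do not show how single genes moved: ENSCAFG00000008344 went from 0.41 to 0.04 and ENSCAFG00000007746 from -0.72 to -0.87. Of the 30 genes called here, 15 were also called with all 12 tame libraries.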

How the data were processed

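For each region the authors deposited estimated counts by gene, with dog Ensembl identifiers per the file headers. The submitters' processing notes name CASAVA 1.8.2, FastQC, Trimmomatic, BWA, bedtools, edgeR and the dog build canFam3, without roles, and how the authors shared reads between genes is not given in the sources used here. Of the cortex values, 4.36% were not whole. The table columns cover 24 cortex and 22 forebrain libraries, and labelled tame forebrain samples ID488 and ID490 are not used here.

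Counts were rounded, genes kept with filterByExpr (minimum count 10), libraries scaled by TMM and lines compared with edgeR 4.0.16 (robust quasi-likelihood test, line as the single term, R 4.3.3). SE is the absolute log2 fold change over the square root of F. CPM are TMM-scaled, and distances and components use log2(CPM + 2). Forebrain totals ran from 6.25 to 13.6 M counts. Alternatives used limma 3.58.1, DESeq2 1.42.0 and sva 3.50.0.

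The libraries, tests and alternatives were chosen with earlier results of these data known. The identified genes are the first 2 higher and 2 lower by p-value among called genes with whole counts, at least 10 counts on average in either line, no identical twin row and no place in the 100 highest genes of a cortex library.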

Additional observations from a re-analysis of the deposited data

Results flagged for a closer look

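Tame cortex library ID185 lay far from the other 6 kept tame libraries on 3 measures, which describe the same profile and are not independent. Its first component score was 33.2, where the next tame library scored -2.39. Its mean distance to the other kept tame libraries was 0.392 log2 units, where the next was 0.297, and its mean correlation with the other 18 libraries was 0.980, where the next lowest was 0.987. Without ID185, 24 genes were called, 18 of them among the 30.

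Tame forebrain library ID483 held 17.8 CPM of ENSCAFG00000006655, where the next of the 10 tame forebrain libraries held 9.70 CPM. Of 15 such checks 4 stood out, and chance flags about 0.75.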

How the results depend on the processing

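The cortex count of 30 genes stayed between 27 and 30 under size factors, upper-quartile scaling, either other filter, robust=FALSE and unrounded counts. It was 26 with whole-count genes (added after the data were seen). With the share as a covariate 38 genes were called, 29 of them among the 30. At a 20% share cutoff 39 were called, and 20 of these were among the 30. A 16% cutoff keeps the same 19 libraries, so its count could not change. The cortex count was 67 with DESeq2 (30 of the 30 among them), 115 with limma-voom and sample quality weights (29) and 97 with 4 surrogate variables (25). It was 55 with all tame libraries (15) and 0 with the Wilcoxon test. With 1 library left out it ran from 15 to 33. The smallest p the rank test can give with 7 and 12 libraries is 3.97e-05, and its smallest adjusted p was 0.113. The causes of the remaining changes were not tested. Genes higher in tame made up 46.7% of the calls as reported, 64.1% at the 20% cutoff, 61.7% with limma-voom and 61.9% with surrogate variables. The forebrain count of 12 was 54 with DESeq2, and the interaction count was 0 in every setting run (edgeR and DESeq2), where between 556 and 806 genes fell under 0.05 unadjusted. The 4 identified genes kept their sign in every setting, and their calls held in all 19 fits without 1 library. For ENSCAFG00000008344 the sign is not established with all 12 tame libraries (0.04 on the log2 scale, SE 0.22). Beside the settings named with them above, each of the 4 genes missed the threshold under the Wilcoxon test (adjusted p from 0.113 to 0.127). The difference in library totals was -1.12 M by medians (exact permutation p = 0.809). Tame and aggressive libraries could not be paired, because the labels give no number shared between the lines. Cortex and forebrain libraries were not paired either, since the labels do not tie them to foxes. Pairing them by the matching last digits of their identifiers was not tried. Standard errors were larger for sparse genes: the median was 0.160 in the lowest and 0.0599 in the highest quartile of abundance. The part that depth plays in this was not tested.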

Other observations

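The 5 left-out tame cortex libraries did not make the calls, and their positions were read against the midpoint between the kept tame and the aggressive means. Of the 14 genes called higher, 13 could be read on the scale of all 24 libraries. Library ID186 lay on the tame side in 11 of these 13 and in 12 of the 16 lower genes, ID182 in 10 and 11, and ID190 in 10 and 9. Libraries ID187 and ID191, which had the highest shares in their 100 highest genes, each lay on the tame side in 9 of 13 higher and 7 of 16 lower genes. Over all genes the 5 libraries lay above the midpoint in 49.4% to 53.1%. These positions are given as values, and no test was made.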
